A study of Mus musculus with 2 samples.

Results

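The Mir322, Mir503 and Mir450 cluster is a run of miRNA genes on the mouse X chromosome. Its members were taken by gene symbol as Mir322, Mir503, Mir351, Mir542, Mir450-2, Mir450-1 and Mir450b, which are 7 of the 1973 miRNA genes in the tables, and no other miRNA gene of the tables lies among them. Small RNA under 30 bases was sequenced from whole lung of newborn mice of the strain B6NCrl at an age of 0 days. The 2 libraries form a single group. Each was made from 2 lungs of a pup, pup 1 for replicate 1 and pup 3 for replicate 2, both of pregnancy 1, although a single donor record is given for both. Sex was not collected, which bears on genes of the X chromosome. Levels are own-strand reads per 1000000 reads on all miRNA genes (CPM), and a gene counts as detected where each library holds 10 or more of its reads. All 7 members were detected, against 308 of the 1973 genes. There is no second condition, so the data describe levels, their order and the difference between the libraries.

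Neighbouring miRNA genes are often transcribed as a single primary RNA, from which Drosha cuts the hairpin precursors and Dicer the mature miRNAs. A mature miRNA finds its target mRNAs mainly through its seed, bases 2 to 8 from its 5′ end, so miRNAs with the same seed repress overlapping sets of targets. Mir322 is the mouse counterpart of human miR-424. Together with Mir503 it belongs to the extended miR-15/16 family, known for repressing cell cycle genes such as cyclin D1 and Cdc25a and for driving myoblasts out of the cycle. In the endothelium of the pulmonary circulation, miR-424 and miR-503 are known as a link between apelin and fibroblast growth factor signalling.

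The mature sequences show which members can share targets, and they are given here by shared seed, from RefSeq on GRCm38.p6, 5′ to 3′, with the seed in capitals. The first set holds the miR-322 and miR-503 guide arms with miR-15a and miR-16, members of the same family encoded elsewhere.
miR-322-5p: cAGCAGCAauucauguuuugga
miR-503-5p: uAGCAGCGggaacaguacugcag
miR-15a-5p: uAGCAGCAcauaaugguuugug
miR-16-5p: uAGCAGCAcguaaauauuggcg
The seed of miR-322-5p was identical to those of miR-15a-5p and miR-16-5p. That of miR-503-5p differed from it by A8G, with miR-322-5p as the reference and positions counted from 1 at the 5′ end, so bases 2 to 7 were common to all 4. Over the 22 bases compared, miR-322-5p matched miR-15a-5p at 15 positions and miR-503-5p at 11.

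Mir351 carries a different seed, that of the miR-125 family, the mammalian relatives of the worm developmental timing RNA lin-4.
miR-351-5p: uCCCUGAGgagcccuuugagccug
miR-125a-5p: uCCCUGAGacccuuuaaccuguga
miR-125b-5p: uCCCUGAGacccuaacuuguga
The first 8 bases were the same in all of these, and beyond them miR-351-5p had only a few positions in common with either, with 10 of 24 and 10 of 22 positions equal over the whole length.

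The remaining members have seeds found in few other mouse miRNAs.
miR-542-3p: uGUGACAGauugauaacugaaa
miR-450a-5p: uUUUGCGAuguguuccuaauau
miR-450b-5p: uUUUGCAGuauguuccugaaua
miR-450a-1-3p: aUUGGGAAcauuuugcauaaau
miR-450b-3p: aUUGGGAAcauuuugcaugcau
The seeds of miR-542-3p, miR-450a-5p and miR-450b-5p were shared with 0 other mature mouse miRNAs of the RefSeq table. With miR-450a-5p as the reference, miR-450b-5p differed within the seed by G7A and A8G. On the other arm, miR-450a-1-3p and miR-450b-3p had the same seed and were equal over their first 18 bases. The miR-450a-5p sequence is encoded by both Mir450-1 and Mir450-2, whose precursors share a stretch of 25 bases that holds all 22 bases of it, shown here as DNA with miR-450a-5p in capitals.
Mir450-1 and Mir450-2: tTTTTGCGATGTGTTCCTAATATgt
Reads that map to several places are in no gene row, so a read of miR-450a-5p cannot be assigned, and the levels of Mir450-1 and Mir450-2 below are too low by an unknown amount. Mir450b shares at most 19 bases with another precursor, and Mir322, Mir503, Mir351 and Mir542 at most 13. The tables count both arms of a hairpin together, so no level below belongs to a single arm.

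The cluster covers 6353 bases of chromosome X on GRCm38 (mm10), from 53047997 to 53054349 on the minus strand. In the direction of transcription Mir322 comes first (53054255 to 53054349), followed after 200 bases by Mir503 (53053984 to 53054054) and after a further 630 bases by Mir351 (53053255 to 53053353). A gap of 3767 bases separates this trio from Mir542 (53049403 to 53049487). After a further 1035 bases come Mir450-2 (53048299 to 53048367), Mir450-1 (53048154 to 53048244) and Mir450b (53047997 to 53048078), which lie 54 and 75 bases apart. GENCODE M21 places all 7 between genes, with the noncoding RNA gene C430049B03Rik starting upstream and ending 696 bases before Mir322, and the lincRNA gene Gm28730 in the gap between Mir351 and Mir542. RefSeq extends C430049B03Rik from 53053112 to 53057190, over Mir322, Mir503 and Mir351 and none of the other 4.

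**Figure D1:**
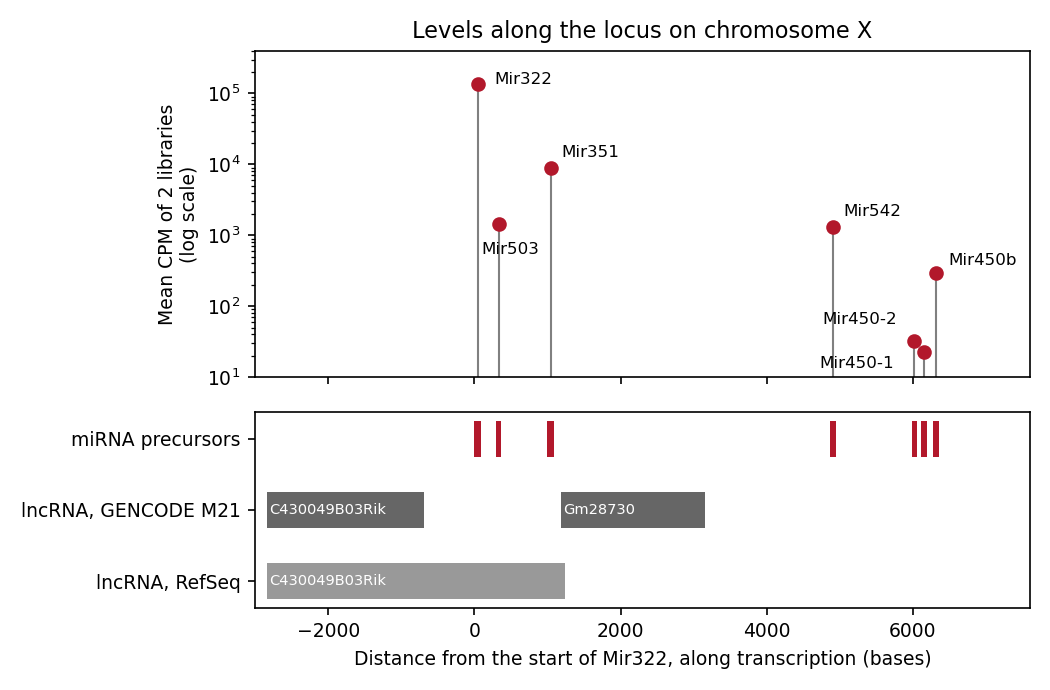
Levels along the locus. The upper panel plots the mean CPM of the 2 libraries (log scale) against the distance in bases from the start of the Mir322 precursor in the direction of transcription, and the lower panel draws the 7 precursors and the long noncoding RNA genes of GENCODE M21 and RefSeq to scale. The RefSeq gene covers the first 3 precursors. The lowest levels, near the far end, are those of Mir450-2 and Mir450-1, which lack reads with several positions and are too low by an unknown amount.

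The cluster supplied 14.7% ± 0.347 (SD, n = 2) of the counted miRNA reads of the newborn lung, and most of these came from Mir322. Its members together held 675471 reads in replicate 1 and 781938 in replicate 2, which is 14.9% (exact Clopper-Pearson 95% interval 14.8687% to 14.9343%) and 14.4% (14.3812% to 14.4403%) of the reads on miRNA genes, or 146561 ± 3470 CPM (SD, n = 2). Mir322, the miR-15/16 family member at the head of the cluster, stood at 135595 CPM in replicate 1 and 133379 CPM in replicate 2. Among reads with a single position it was second to the endothelial Mir126a, at 160640 and 160658 CPM, in each library, and genes whose reads map to several places can stand too low in that order. Mir322 made up 91.8% ± 1.10 of the cluster's reads. Intervals here and below cover only the counting error of reads within a library. PCR copies of a molecule are counted as separate reads, so the intervals can be too narrow even for that.

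Mir503, the other miR-15/16 family member, lies next to Mir322 but was far lower, with 6680 and 7412 reads, or 1474 and 1366 CPM, in replicates 1 and 2. It ranked 63rd and 70th among the 1973 genes. Mir322 exceeded it in reads 92.0-fold and 97.6-fold, so members that share 6 seed bases and lie 200 bases apart differed in counted level by 6.57 ± 0.061 on the log2 scale (SD, n = 2).

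Mir351, the miR-125 seed member, was the second highest of the cluster. It had 46765 reads in replicate 1 and 41443 in replicate 2, and its level of 10317 CPM in replicate 1 stood above the 7638 CPM in replicate 2. It ranked 22nd and 23rd of all genes and supplied 6.92% and 5.30% of the cluster's reads. The SD of its level, 1894 CPM around a mean of 8977 CPM, was the widest of the 7 in absolute terms.

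Mir542, whose miR-542-3p is known to target the survivin gene Birc5, had 5893 and 7349 reads, or 1300 and 1354 CPM. Mir450b stood at 279 and 311 CPM, from 1265 and 1685 reads. For the last pair, Mir450-2 had 132 and 194 reads, or 29.1 and 35.8 CPM, and Mir450-1 had 99 and 129 reads, or 21.8 and 23.8 CPM. These reads are those with a single position in the genome. The 4 genes from Mir542 onward together made up 1677 ± 66.7 CPM, against 144884 ± 3537 CPM for the first 3 (SD, n = 2). Reads on the opposite strand were 0 for all 7 genes in replicate 1, and in replicate 2 there was 1, at Mir322.

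**Figure D2:**
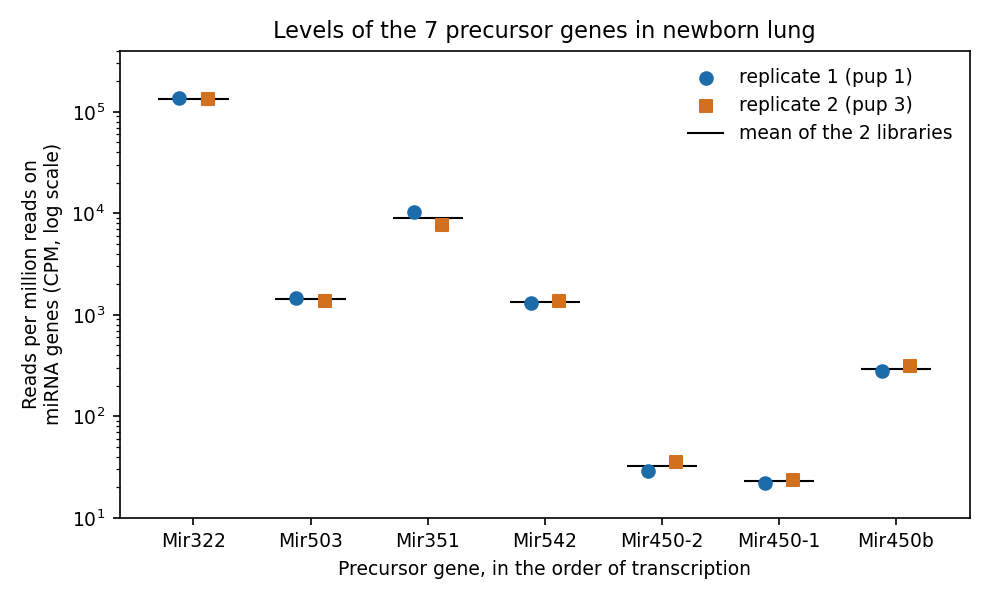
Levels of the 7 precursor genes in order of transcription, in CPM on a log scale. Circles are replicate 1, squares replicate 2 and bars their mean, from 134487 CPM for Mir322 to 22.8 CPM for Mir450-1. The libraries lie close together beside the differences between genes, and the widest gap in absolute terms is that of Mir351. Mir450-2 and Mir450-1 lack reads with several positions.

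From high to low the order was Mir322, Mir351, Mir503, Mir542, Mir450b, Mir450-2 and Mir450-1. It was the same in both libraries and when reads were divided by precursor length. Mir322 exceeded Mir351 by 3.92 ± 0.29 on the log2 scale of reads (SD, n = 2), and Mir351 exceeded Mir503 by 2.65 ± 0.23. Mir542 exceeded Mir450b by 2.17 ± 0.067, and Mir450b exceeded Mir450-2, whose shared reads are not counted, by 3.19 ± 0.10. For these neighbours in the order the difference in counted reads was many times the spread between the pups. That spread does not measure whether different sequences enter a library equally well, which was not tested. The differences are therefore those of counted reads. For Mir450b and Mir450-2 the uncounted reads of Mir450-2 also raise the ratio in both libraries, so it cannot show a difference in level.

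Mir503 and Mir542 lay close together, and their mean log2 ratio did not exceed its SD. By the planned rule, no overlap of values over the 2 libraries, they still count as apart. The margin was narrow, with a lowest value of 1366 CPM for Mir503 and a highest of 1354 CPM for Mir542. The log2 ratio of Mir503 to Mir542 was 0.18 in replicate 1 (95% interval of an exact binomial calculation 0.13 to 0.23) but 0.01 in replicate 2 (-0.03 to 0.06), which gives 0.10 ± 0.12. Mir450-2 exceeded Mir450-1 by 0.42 (0.03 to 0.81) and 0.59 (0.26 to 0.92). As the reads of their common mature sequence are left out, that order holds only for reads on the parts that differ. These ratios carry no p, because flipping signs over 2 libraries can give no exact two-sided p below 0.5.

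Mir322 held most of the counted reads on the genes of the miR-15/16 seed family in this tissue. Of the listed genes outside the cluster, 5 of 6 have a row. Mir195a, a member known for ending the cell cycle of postnatal heart muscle, stood at 4962 and 5742 CPM in replicates 1 and 2. Mir15a and Mir16-1, a pair known for its deletion in chronic lymphocytic leukaemia, stood at 4303 and 3873 CPM and at 4525 and 3557 CPM. Mir15b had 1529 and 1873 CPM, and its neighbour Mir16-2 had 1093 and 739 CPM. Each of these was far below Mir322 in both libraries, while Mir503 lay among the lowest of them.

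Mir322 and Mir503 together exceeded the 5 other genes by 3.06 and 3.09 on the log2 scale of summed CPM in replicates 1 and 2, a mean of 3.08 ± 0.022 (SD, n = 2) and a ratio of 8.44. They supplied 89.3% and 89.5% of the counted reads on the family's measured genes. Mir503 alone reached 8.24% and 7.97% of the sum of itself and the other 5.

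These shares include reads of arms that lack the seed, such as miR-322-3p, as both arms of a hairpin are counted together. They also leave out reads of known family members. Mir497, the sixth listed gene (Mir497a in the list), has no row. The row of Mir497b, which covers it on the other strand, held 13790 and 17733 opposite-strand reads, and with these added to the other genes the log2 ratio was 2.82. Mir16-1 and Mir16-2 encode the same miR-16-5p and hold a stretch of at least 20 bases found in another miRNA gene. Reads mapped to several places numbered 2860715 and 3812820 in replicates 1 and 2, more than the 614637 and 723726 reads of Mir322. How many of them are miR-16-5p was not tested, so the ratio can be too high. Other mouse miRNA genes with the seed held at most 1 read, as Mir6342, Mir6353 and Mir6419 had 0 reads and Mir195b had 0 and 1.

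Mir351 was likewise above the counted reads of the miR-125 genes, which share the seed of miR-351-5p. Here too both arms of each hairpin are counted together. Mir125a stood at 2637 and 2137 CPM in replicates 1 and 2. Mir125b-2 had 239 and 256 CPM, and Mir125b-1 had 55.8 and 53.6 CPM. The log2 ratio of Mir351 to their sum was 1.82 in replicate 1 and 1.64 in replicate 2, a mean of 1.73 ± 0.12 (SD, n = 2) and a ratio of 3.32. Mir351 supplied 77.9% and 75.7% of the reads of these 4 genes. Mir125b-1 and Mir125b-2 encode the same mature miR-125b-5p, and their reads with several positions are not counted either. The ratio can therefore be too high. Against Mir125a alone, which holds no shared stretch, the log2 ratio was 1.90. Leaving genes out of the sum can only raise it, so this value does not show what the uncounted reads would change.

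**Figure D3:**
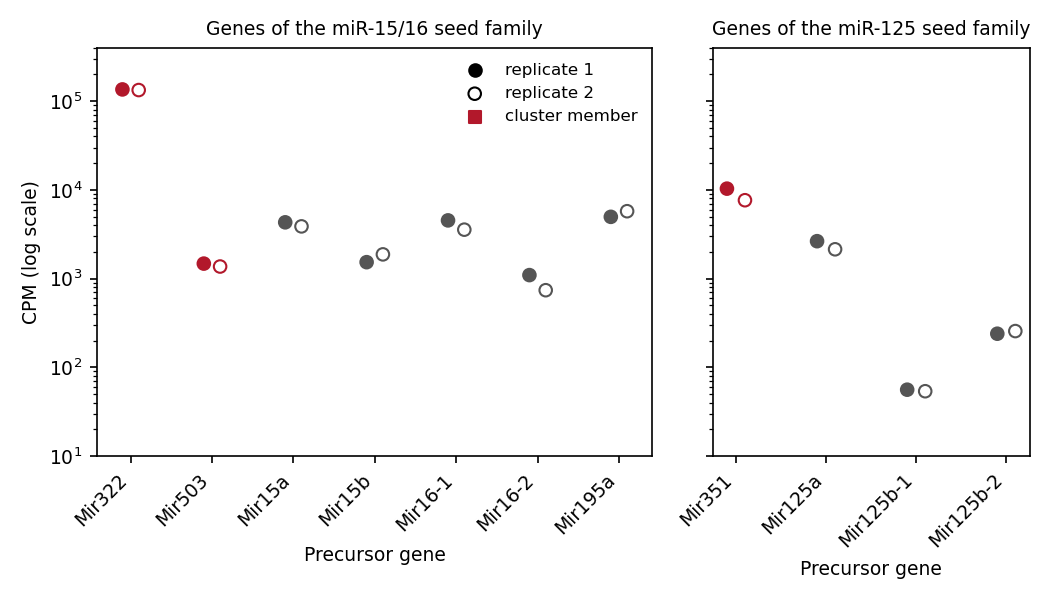
Levels of the cluster's members beside genes with the same seed family elsewhere in the genome, in CPM on a log scale, with filled circles for replicate 1 and open circles for replicate 2. Mir322 lies above all measured genes of the miR-15/16 family, Mir503 lies near Mir15b and Mir16-2, and Mir351 lies above Mir125a, Mir125b-1 and Mir125b-2. Mir16-1, Mir16-2, Mir125b-1 and Mir125b-2 lack reads with several positions.

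Between the libraries the cluster did not move in a single direction. In a two-sided exact binomial test of how each gene's reads divide between the libraries, 5 of 7 members passed after Benjamini-Hochberg adjustment over the 375 genes whose reads in both libraries sum to 10 or more. Of all genes tested, 42.4% passed. This test compares 2 libraries against counting error, not conditions, and at this depth small differences pass. Lower in replicate 2 were Mir351, Mir503 and Mir322, and 23.2% of all genes passed in that direction. Higher in replicate 2 were Mir542 and Mir450b, against 19.2% of all genes.

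Mir351 showed the widest difference of the 7, with a log2 ratio of replicate 2 to replicate 1 of -0.43, a 1.35-fold difference. Its p in the exact binomial test was too small for the software to represent. Among 233 genes that averaged 100 or more reads, 22 had a larger log2 ratio in size. For Mir503 the log2 ratio was -0.11 (adjusted p 2.70e-05, exact binomial test), and for Mir450b 0.15 (adjusted p 0.0120, exact). Mir542 differed by 0.06 (adjusted p 0.0460, exact). The difference in Mir322 was -0.02 (adjusted p 1.50e-20, exact), and it turned to 0.0079 with TMM scaling, to 0.0046 with the size factors of DESeq2 and to 0.027 with totals that leave out the 10 most abundant genes. Mir450-2 at 0.30 (adjusted p 0.154, exact) and Mir450-1 at 0.12 (adjusted p 0.716, exact) did not pass. The median log2 ratio was 0.06 over the 7 members and -0.03 over the 375 genes.

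Ratios within a library do not depend on its total. The log2 ratio of Mir322 to Mir351 was 3.72 in replicate 1 (95% interval of an exact binomial calculation 3.70 to 3.73) and 4.13 in replicate 2 (4.11 to 4.14), so these intervals lie apart. The log2 ratio of Mir322 to Mir503 moved less, from 6.52 to 6.61, and that of Mir322 to Mir542 went from 6.70 to 6.62. With the spread between libraries estimated over all genes (a coefficient of variation of 13.2%), the exact test of edgeR called 0 of the 7 members and 1.07% of the 375 genes. As that spread comes from the same 2 libraries that are compared, few calls can result, and this shows nothing about whether the members differ. At an unadjusted p under 0.05 it also called 0 members, and the adjusted p of Mir351 was 0.883 in this exact test. Whether the sex of the pups moves with these X-linked levels was not tested.

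**Figure D4:**
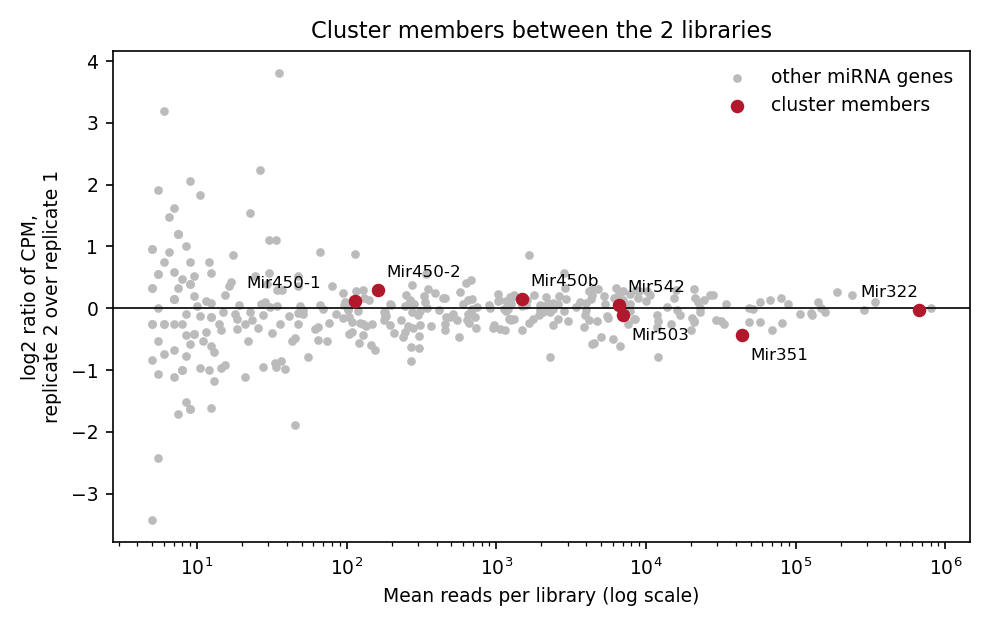
Difference between the libraries for each miRNA gene with reads in both, as the log2 ratio of CPM in replicate 2 to replicate 1 against the mean reads per library (log scale). Cluster members are red and all other genes grey. Mir351 lies at -0.43 below the bulk of genes of similar depth, and the other 6 members lie between -0.11 and 0.30.

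Beside other clusters of miRNA genes, the cluster had the highest summed level and the widest range in counted reads. Clusters were defined by position, as genes on a strand with gaps of at most 10000 bases, and 12 had at least 3 detected genes. Mir322 exceeded Mir450-1 by 12.5 ± 0.103 on the log2 scale (SD, n = 2), and the median range over the 12 was 6.08. Next came the cluster led by Mir411 on chromosome 12 with 11.04 ± 0.57 between Mir411 and Mir758, and that of Mir449a, a miRNA of multiciliated cells, with 10.92 ± 0.39. Their order changed with the library, at 11.44 and 10.64 for Mir411 against 10.65 and 11.20 for Mir449a in replicates 1 and 2. Mir758 had 11 and 24 reads, close to the limit of detection. The place of the Mir322 cluster rests on Mir450-1 and Mir450-2. Without genes that hold a shared stretch its range, now from Mir322 to Mir450b, was 8.84, second of 10 clusters after that of Mir449a. The cluster led by Mir127 on chromosome 12 was close behind at 8.82, so this place is not firm. In replicates 1 and 2 the range from Mir322 to Mir450b was 8.92 and 8.75. That from Mir127 to Mir770 was 8.68 and 8.96, which reverses the order in replicate 2. By the share of its highest gene, 91.8%, the Mir322 cluster ranked 3 of 12, after the clusters of Mir449a (99.9%) and Mir23a (94.8%). As all 3 genes of the Mir23a cluster hold shared stretches, this rank too holds for the counted reads only. These are descriptions with no test.

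**Figure D5:**
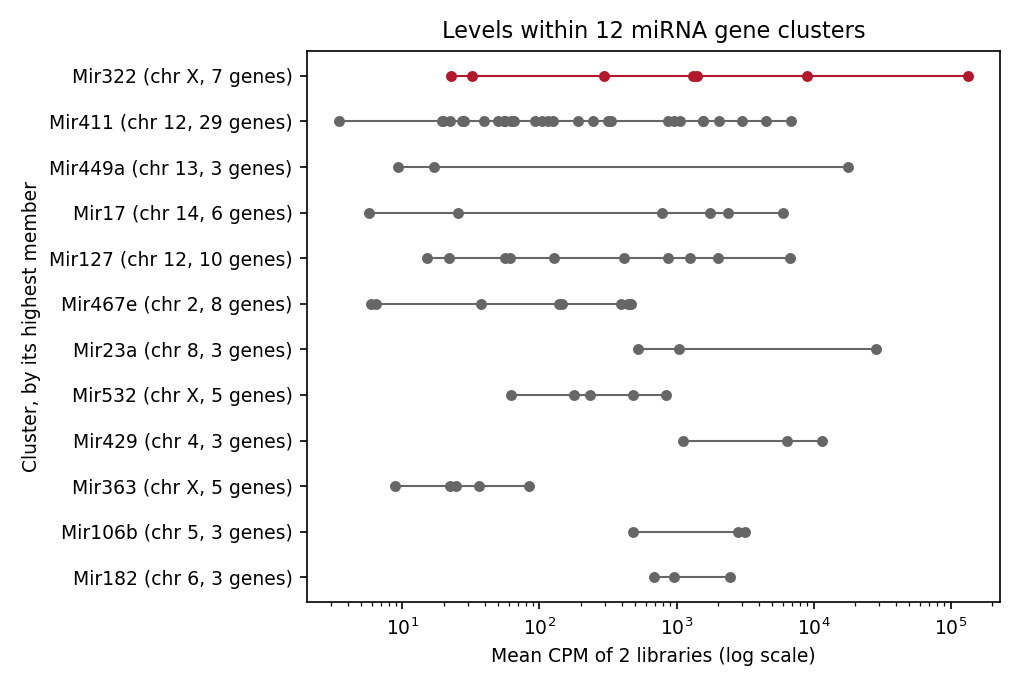
Mean CPM of the 2 libraries (log scale) for the detected genes of each of 12 positional clusters, named by their highest member and ordered by range. The Mir322 cluster, in red, runs from 22.8 to 134487 CPM, and its highest gene lies above every other gene drawn. Reads with several positions are not counted.

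On its own chromosome the cluster outweighed all other miRNA genes. It held 88.0% and 87.3% of the reads on the 120 miRNA genes annotated on the X chromosome in replicates 1 and 2, and with Mir322 left out its other 6 members held 39.7% and 33.9%. The highest other genes of that chromosome were Mir652 at 4646 ± 13.9 CPM, Mirlet7f-2, a let-7 gene, at 4623 ± 123 CPM (SD, n = 2), and Mir98, of the same family, with 4000 and 4496 CPM in replicates 1 and 2. Mir361 followed at 1403 ± 91.9 CPM and the myeloid Mir223 at 1307 ± 106 CPM. In the counted reads Mir351 was above all of these in both libraries, but Mirlet7f-2 has a shared stretch of 20 bases, so its level, and with it this order and the cluster's share of the chromosome, lack its reads with several positions. Mir503 lay close to Mir361, at 1474 and 1366 CPM against 1338 and 1468 CPM in replicates 1 and 2. Mir542 lay close to Mir223.

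By distance of log2(CPM + 1) over the 2 libraries, the genes outside the cluster nearest to Mir322 were Mir126a at a distance of 0.36, Mir143, typical of smooth muscle cells, at 1.40 and Mir335 at 1.74. Those nearest to Mir351 were Mir99b at 0.27, Mir200c at 0.37 and Mir22 at 0.44. Mir99b stood at 10726 and 9157 CPM in replicates 1 and 2. Nearest to Mir503 were Mir139 at 0.11, Mir130b at 0.12 and Mir361 at 0.17. Over 2 libraries such likeness is mostly likeness of level.

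The libraries held 4532902 and 5426081 reads on miRNA genes in replicates 1 and 2. For a gene with 0 reads, the limit that 3 reads of the total set was 0.662 and 0.553 CPM. Of the markers of lung cells, Mir126a of endothelium and Mir143 of smooth muscle were among the highest genes. Mir145a, also on the smooth muscle list, had only 7115 and 8347 reads in replicates 1 and 2, against 297377 and 380207 for Mir143. All 5 epithelial markers of the miR-200 family were detected. The multiciliated list summed to 22081 and 22235 CPM, the erythroid list to 1292 and 1131 CPM, and the measured leukocyte marker stood at 1232 and 1381 CPM. Of 5 measured neuronal markers 0 were detected. These are gene copies of miR-124 and miR-9, and reads that map to several places are in no gene row. Their low counts therefore do not show that these miRNAs are absent. The heart and skeletal muscle list summed to 416 and 456 CPM, with 4 of 5 measured genes detected. The liver marker Mir122 was also detected, at 45.9 and 53.1 CPM. In whole tissue, fewer cells of a type and less RNA per cell cannot be told apart, and which lung cells the cluster's reads came from was not tested.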

How the data were processed

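Small RNA of newborn lung was measured in 2 libraries of 1 group. The authors deposited whole-number read counts per miRNA gene for each library, with no normalization, annotated with GENCODE M4 on the assembly mm10, per the file descriptions. The aligner, the counter and the trimming were not given in the sources used here. The 3 columns of counts were read as either strand, own strand and opposite strand, because in each gene row the first is the total of the other two. The own-strand column, taken as such because it holds 98.2% and 98.0% of these reads, was used. The 4 summary rows that name no gene were left out of totals. They hold multimapped reads (34.6% and 36.7% of the library), unmapped reads (8.49% and 8.69%) and reads on no feature (2.18% and 2.41%), with 0 ambiguous reads.

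Symbols and positions came from GENCODE M21 on GRCm38, which matched 1894 of 1973 identifiers, and mature sequences from RefSeq (GRCm38.p6), which held all 7 members. A shared stretch is 20 bases also found in another of 2202 miRNA precursors. CPM, means, SDs (n = 2) and log2 ratios were computed with Python 3.11.15, and exact intervals and binomial tests with scipy 1.17.1, called at an adjusted p of 0.05. With 1 library on a side, no quasi-likelihood test of edgeR was possible. Scaling factors and an exact test came from edgeR 4.0.16, size factors from DESeq2 1.42.0. The binomial test was tested on simulated data. Spreads and p-values describe these libraries only.

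Named were the members, all listed seed-family genes, the 3 genes nearest to Mir322, Mir351 and Mir503, the 5 highest other genes of the X chromosome, the top 2 of the profile, and the 3 clusters with the widest ranges. Mir450b, Mir23a, Mir127, Mir770 and the minor seed genes are named where a count or rank turns on them, and Mir145a and Mir122 as listed markers. The members and lists were chosen with earlier results of these data known. Alternatives were another strand column, denominator, scaling, filter or test, division by precursor length, leaving out genes with shared stretches and leaving out each library.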

Additional observations from a re-analysis of the deposited data

Results flagged for a closer look

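The row of Mir497b had 0 reads on its own strand but 13790 reads on the opposite strand in replicate 1 and 17733 in replicate 2, which lie outside the strand counted here. These amount to 3042 and 3268 per 1000000 reads on miRNA genes. The Mir497 precursor, of the same seed family as Mir322, lies within this row on the other strand of chromosome 11, from 70234717 to 70234800.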

How the results depend on the processing

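No paired analysis was possible because the libraries form a single group. Per 1000000 of all reads, the summed level of the cluster was 78427. Reads per base of the precursor gave a log2 ratio of 2.95 for Mir322 and Mir503 over the other miR-15/16 genes and of 1.20 for Mir351 over the miR-125 genes. Without shared-stretch genes these were 3.61 and 1.90, but leaving genes out of the compared sum can only raise such a ratio. The range within the cluster without shared-stretch genes was 8.84. With the opposite-strand reads of the Mir497b row, added after seeing the data, the miR-15/16 ratio was 2.82. The log2 ratio between libraries for Mir322 reversed to 0.0079 (TMM), 0.0046 (DESeq2) and 0.027 (without the 10 most abundant genes), since these scalings raise every log2 ratio by 0.032, 0.028 and 0.051. Members past the binomial test numbered 4 or 5 under the strand, scaling and filter alternatives, but the calls changed: 2 higher and 3 lower in replicate 2 as reported became 3 and 2 with TMM and without the 10 most abundant genes, where Mir322 passed in the opposite direction (adjusted p 0.00496 and 4.44e-27, exact), Mir322 did not pass with DESeq2 factors (adjusted p 0.134, exact), and 1 higher and 3 lower passed with no filter. The number was 0 by the exact test of edgeR, which called 4 of 375 genes where the binomial test called 159. Mir542 missed the threshold with reads on either strand (adjusted p 0.0565, exact). Leaving out a library changed no direction of the levels and ratios, and with 2 libraries it cannot move a mean by more than the SD; it gave 144107 to 149015 CPM for the summed level. The range within clusters and the share of the X chromosome were varied after seeing the data.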
